A study of Mus musculus with 24 samples.

Results

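The Kcn genes encode potassium channels and the subunits that assemble with them. All genes whose symbol on the array platform begins with Kcn were taken, each represented by the probe set of highest mean among those with a single symbol, which gave 92 of 19938 genes. They comprised 43 voltage-gated genes (Kcna to Kcnh, Kcnq, Kcns and Kcnv), 15 inward rectifiers (Kcnj), 14 two-pore genes (Kcnk), 11 calcium- or sodium-activated genes (Kcnm, Kcnn and Kcnt) and 9 others, among them the Kcnip genes and 3 RNA genes with a Kcn symbol.

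The tissue was the suprachiasmatic nucleus (SCN), the pacemaker of daily rhythms in the hypothalamus. C57/BL6 mice were kept for 3 weeks in 12 h of light and 12 h of darkness and then in complete darkness, and SCN RNA was taken at intervals of 2 h, first at circadian time (CT) 18 and last at CT 64. Each of the 24 arrays carries equal amounts of RNA from 3 mice, without a replicate of any time. The spread around the fitted curve served as the error, and the number of arrays limits the precision. The 12 arrays from CT 42 to CT 64 form the second cycle and the 12 arrays from CT 18 to CT 40 the first cycle, all from mice of the same strain in darkness, and both cover the same circadian times. Values are log2 intensities.

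Potassium channels let potassium leave or enter the cell along its gradient and so set the resting potential, shape the action potential and limit repetitive firing. SCN neurons fire faster by day than by night, and fast delayed rectifier, A-type and large-conductance calcium-activated potassium currents are known to take part in this daily change. Inward rectifiers and two-pore channels hold the membrane near rest, and in glia they take up potassium released by neurons.

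The tissue label was checked against marker genes. All 10 SCN neuron markers listed passed the filter on low values and 5 of them were rhythmic, while neurons of neighbouring nuclei (Oxt and Sst among 6 tested markers, 0 rhythmic) were also measured. Glial and pituitary genes varied between arrays. The mean of 6 anterior pituitary genes lay between 5.20 and 6.21 in the second cycle and between 5.33 and 8.33 in the first cycle, highest from CT 18 to CT 26, and their part in the results below was tested only by leaving out those arrays. The mean of 7 oligodendrocyte genes lay between 8.82 and 9.57 in the second cycle and between 8.40 and 9.59 in the first cycle, and that of 8 astrocyte genes between 8.69 and 9.10 in the second cycle and between 8.47 and 9.12 in the first cycle. The array at CT 40, and less so those at CT 62 and CT 64, had a narrower range of values than the rest (interquartile ranges of 2.48, 2.67 and 2.65, against 2.72 to 2.90) and a higher background over 1194 olfactory and vomeronasal receptor genes, by 0.34, 0.19 and 0.16 above the mean array. These are called the 3 narrow arrays below, and fits with that background as a covariate are called background-adjusted. All 3 were taken in subjective night, and CT 40 and CT 64 are the only arrays at their circadian time. There the time of night and the state of the arrays cannot be told apart. A fit without the 3 narrow arrays has no array at that time. In such bulk samples, fewer cells of a type and less RNA per cell cannot be told apart.

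Of the 92 members, 71 had a mean at or above the 30th percentile of all genes (5.52) and were tested among 13956 genes that passed. The 21 below it, with means from 4.03 to 5.52, were Kcna7, Kcna10, Kcnab3, Kcne1, Kcne2, Kcne3, Kcne4, Kcng3, Kcnj1, Kcnj2, Kcnj5, Kcnj14, Kcnj15, Kcnk5, Kcnk18, Kcnmb4os1, Kcnmb4os2, Kcnq1, Kcns2, Kcnu1 and Kcnv2. All calcium- or sodium-activated members passed, but 1 of 5 Kcne genes, which encode small single-pass subunits of voltage-gated channels, did so.

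A 24-h rhythm was tested by a cosine curve in limma with Benjamini-Hochberg adjustment over all 13956 genes. It was called in 9 of the 71 members, or 12.7%, where 7.65% of all tested genes (1067) were called. Over the 71 members the median amplitude, from the mean to the peak of the curve on the log2 scale, was 0.07, and over all genes it was also 0.07. Counting from subjective dawn, the called members peaked mostly in early day, 6 of them between 0 and 6 h, 1 (Kcnmb3) between 12 and 18 h and 2 (Kcnh5 and Kcnj6) between 18 and 24 h; of all called genes, 610, 93, 217 and 147 peaked in the 6-h windows that start at 0, 6, 12 and 18 h. The count of members depended on single arrays. It lay between 3 and 11 when 1 array was left out, where the count over all genes lay between 704 and 1440, and was 3 to 5 without the array at CT 22, CT 24, CT 28, CT 36, CT 38, CT 46, CT 48, CT 50, CT 60 or CT 62. It was 5 in the background-adjusted fit (534 over all genes) and 4 without the arrays from CT 18 to CT 26, where pituitary genes were high (665 over all genes).

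**Figure D1:**
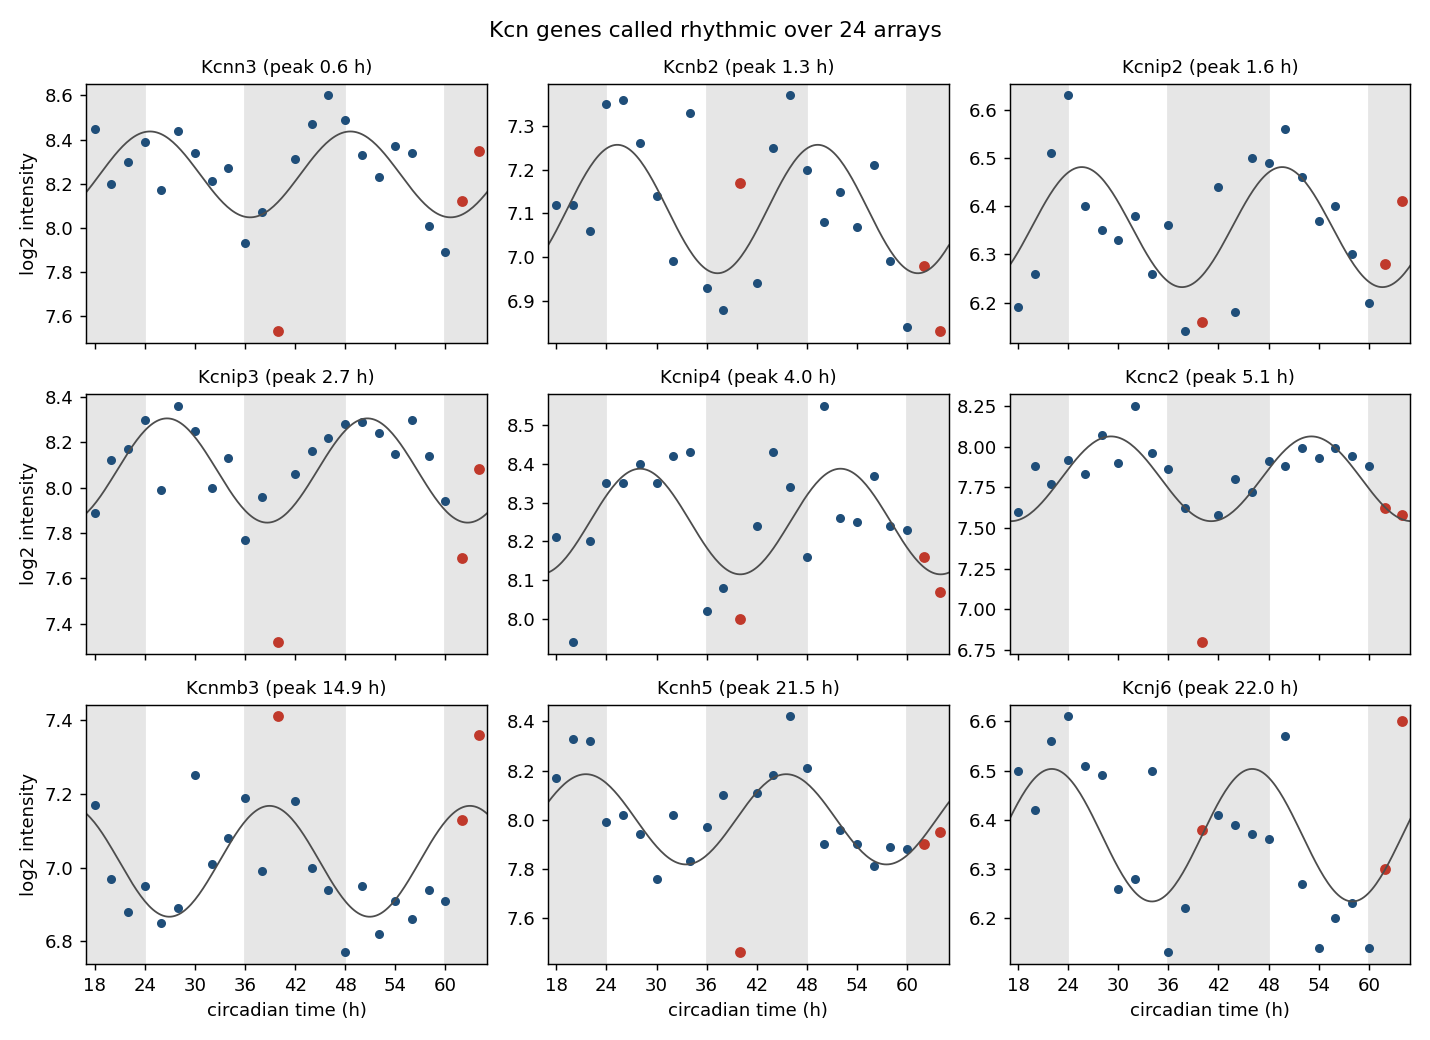
Log2 intensity of the 9 called Kcn genes against circadian time in hours, with points for the 24 arrays, red points for the arrays at CT 40, CT 62 and CT 64, a line for the fitted 24-h curve and grey for subjective night. The array at CT 40 is the lowest point of Kcnc2, Kcnip3, Kcnh5 and Kcnn3 and the highest of Kcnmb3.

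By class, 3 of 32 tested voltage-gated members were called, 1 of 10 inward rectifiers, 0 of 12 two-pore members, 2 of 11 calcium- or sodium-activated members and 3 of 6 others. Their median amplitudes were 0.06, 0.06, 0.07, 0.10 and 0.09. At an unadjusted p under 0.05 the counts were 7, 1, 1, 6 and 3, in all 18 of 71 members or 25.4%, where 27.5% of all tested genes had such a p. Grouped by role, after the values were seen, the called members were 5 of 51 pore-forming genes, 4 of 11 auxiliary subunits and 0 of 7 electrically silent voltage-gated subunits (limma, at adjusted p from 0.332 to 0.942). Beside these counts stands the share of 7.65% called over all tested genes, to which 0 of 12 two-pore and 0 of 7 silent members are close. The differences between classes and between roles were not tested.

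**Figure D2:**
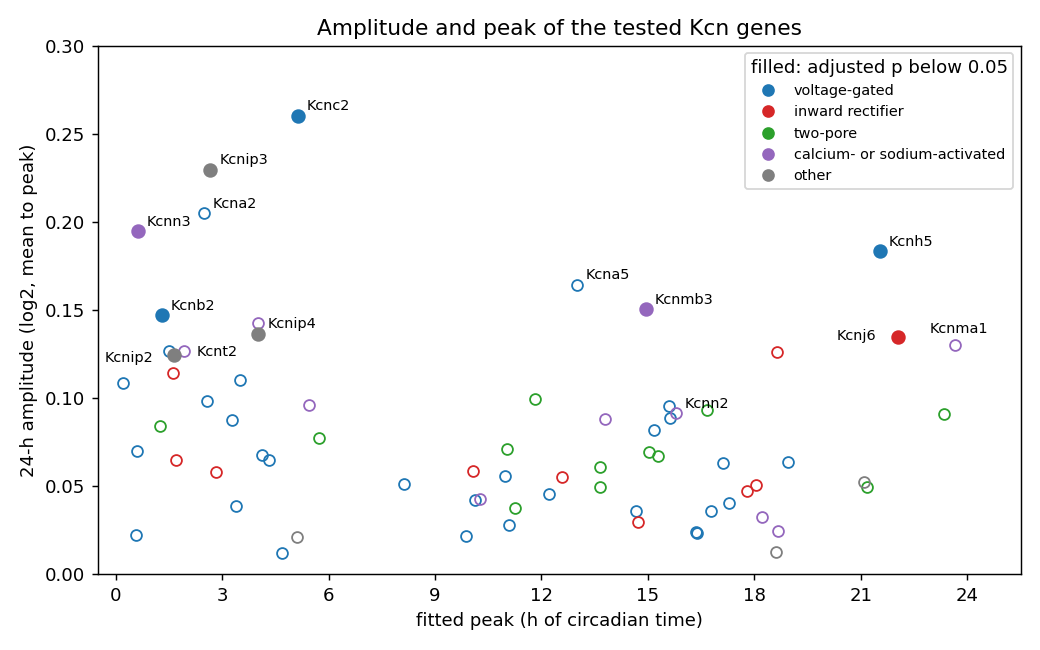
Amplitude (log2, mean to peak) of the 71 tested Kcn genes against the fitted peak in hours of circadian time, coloured by class, with filled points for an adjusted p below 0.05. The called genes have amplitudes from 0.12 to 0.26, and 6 of the 9 lie between 0 and 6 h.

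Kcnc2 encodes a fast delayed rectifier subunit that lets neurons repolarise quickly and fire at high rates. Its log2 intensity had a lowest value of 6.80 at CT 40, a median of 7.88 and a highest value of 8.25 at CT 32. Values were high through subjective day and low in the middle of subjective night in both cycles, and the array at CT 40 stood far below the next lowest. Averaged over both cycles it was highest at circadian time 8 h, with 8.12, and lowest at 16 h, with 7.19. Both arrays at 16 h are narrow ones, so low night values and the state of the arrays cannot be told apart there. The fitted amplitude was 0.26 ± 0.05 (SE), a 1.43-fold difference from trough to peak, with the peak at 5.13 ± 0.79 h (limma, adjusted p = 0.0121). It was 0.19 in the second cycle, peaking at 5.38 h, and 0.33 in the first cycle, peaking at 4.99 h. Without the array at CT 40 the amplitude was 0.19 (adjusted p = 0.00158), and in the background-adjusted fit 0.21 with a peak at 7.17 h (adjusted p = 0.00333). Kcnc2 was called in all 24 fits that left out 1 array. Its relative Kcnc1, which encodes another fast delayed rectifier subunit, had an amplitude of 0.10 ± 0.04 at 2.59 h and was not called (adjusted p = 0.273).

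The RefSeq sequence before a transcript start of Kcnc2 is shown because this gene and Kcnip3 were the members called in every fit without 1 array. It is the most upstream of 4 starts listed for the gene and lies at chr10:112269767-112270016 on the plus strand of GRCm38.p6, with 52.4% G and C.
Kcnc2: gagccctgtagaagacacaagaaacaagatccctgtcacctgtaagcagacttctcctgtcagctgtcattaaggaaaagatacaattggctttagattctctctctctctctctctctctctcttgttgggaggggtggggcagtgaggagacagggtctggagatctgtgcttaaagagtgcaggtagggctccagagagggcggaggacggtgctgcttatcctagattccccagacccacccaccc

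Among the Kcnip genes, which encode calcium-binding proteins that join A-type channels of the Kcnd group, 3 of 4 were called. Kcnip3, whose protein also binds DNA as a transcriptional repressor, had a lowest value of 7.32 at CT 40, a median of 8.13 and a highest value of 8.36 at CT 28. Averaged over both cycles, its values were high from late subjective night through the day and low from dusk to the middle of the night (7.86 at 12 h, 7.83 at 14 h and 7.70 at 16 h). In the second cycle the lowest array was CT 62 (7.69), and CT 64 stood at 8.08. These arrays and CT 40 are the narrow ones, so low night values and the state of the arrays cannot be told apart. The amplitude was 0.23 ± 0.05, with a peak at 2.67 ± 0.78 h (limma, adjusted p = 0.0114), and it was 0.19 in the second cycle and 0.27 in the first cycle. Kcnip3 was called in all 24 fits without 1 array (amplitude 0.18 without CT 40), but not in the background-adjusted fit (amplitude 0.15, adjusted p = 0.112).

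The most upstream of 3 starts listed for Kcnip3 has this sequence before it, at chr2:127522095-127522344 on the minus strand of GRCm38.p6.
Kcnip3: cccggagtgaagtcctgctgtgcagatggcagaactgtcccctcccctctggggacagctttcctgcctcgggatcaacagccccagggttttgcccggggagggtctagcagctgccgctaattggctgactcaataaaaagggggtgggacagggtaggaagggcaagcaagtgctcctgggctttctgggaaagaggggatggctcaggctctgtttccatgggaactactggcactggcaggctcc

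Kcnip2 ranged from 6.14 at CT 38 to 6.63 at CT 24 with a median of 6.36, a narrow band in which the highest arrays were those near subjective dawn. Its amplitude was 0.12 ± 0.03 at 1.63 ± 0.95 h (limma, adjusted p = 0.0331). Kcnip4 ranged from 7.94 at CT 20 to 8.55 at CT 50 with a median of 8.24 and had an amplitude of 0.14 ± 0.04 at 4.02 ± 1.01 h (adjusted p = 0.0452). Its values were mostly higher by day than by night, with much scatter in the second cycle. On ranks neither Kcnip2 nor Kcnip4 passed, and Kcnip4 did not with quantile normalisation, array weights or linear time as a covariate. Kcnip4 was called in 9 of the 24 fits without 1 array, and both genes missed the threshold in the background-adjusted fit (adjusted p = 0.119 for Kcnip2 and 0.129 for Kcnip4). The fourth gene, Kcnip1, ranged from 7.96 to 8.50 and had an amplitude of 0.02 ± 0.05 (adjusted p = 0.934). Kcnrg, whose protein hinders the assembly of voltage-gated channels, had an amplitude of 0.05 ± 0.05 (adjusted p = 0.694).

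The pore-forming partners of these proteins, Kcnd1, Kcnd2 and Kcnd3, carry the A-type current that delays and spaces spikes, and none of the 3 was called. Kcnd2 had an amplitude of 0.13 ± 0.04 at 1.51 h (limma, adjusted p = 0.115), Kcnd3 one of 0.05 ± 0.04 (0.658) and Kcnd1 one of 0.02 ± 0.03 (0.887). Kcnd2 was called in the fit on ranks and with the oligodendrocyte marker mean as a covariate, but its amplitude was 0.05 in the background-adjusted fit (adjusted p = 0.737). Outside the family, 15 genes for proteins that bind potassium channels were listed by hand, of which 13 were tested and 2 called. That is 15.4%, where 7.65% of all tested genes were called, and the difference was not tested. Dpp6, another subunit of the A-type channel, had an amplitude of 0.15 ± 0.03 at 3.16 h (adjusted p = 0.0218), and Adam22, which helps to anchor voltage-gated channels on axons, one of 0.16 ± 0.03 at 0.901 h (adjusted p = 0.00925).

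Kcnh5, which encodes a voltage-gated channel of the ether-à-go-go type, peaked before subjective dawn. Its values ran from 7.46 at CT 40 to 8.42 at CT 46 with a median of 7.97, and they were high at the end of subjective night and low in the afternoon of both cycles, apart from the array at CT 40, a night array that lay below all others. The amplitude was 0.18 ± 0.05 at 21.5 ± 0.951 h (limma, adjusted p = 0.0341), 0.21 in the second cycle and 0.16 in the first cycle, with peaks 0.182 h apart. Without the 3 narrow arrays it was 0.21 at 19.9 h (adjusted p = 0.000684), and background-adjusted it was 0.16 at 19.1 h (adjusted p = 0.0139). It missed the threshold with linear time as a covariate and in 5 of the 24 fits without 1 array (adjusted p = 0.0750 without CT 46).

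Kcnb2, a delayed rectifier gene, ranged from 6.83 at CT 64 to 7.37 at CT 46 with a median of 7.12. Apart from CT 34, the higher values were those around subjective dawn, and the lower ones those around dusk and in early night. The amplitude was 0.15 ± 0.04 at 1.3 ± 0.963 h (limma, adjusted p = 0.0358). It was not called in the background-adjusted fit (0.0807), without the 3 narrow arrays (0.0597), on ranks, with linear time as a covariate or in 9 of the 24 fits without 1 array.

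The other 6 Kcnh genes were not called. Kcnh2, whose channel carries the rapid delayed rectifier current of the heart, ranged from 6.93 to 7.42 and had an amplitude of 0.09 ± 0.03 at 3.27 h (limma, adjusted p = 0.164). Kcnh7 ranged from 6.57 to 7.22 and had an amplitude of 0.11 ± 0.04 at 0.218 h (adjusted p = 0.207). For Kcnh8 the probe sets disagreed in their fitted peak, at 18.9 h for the one used here (amplitude 0.06 ± 0.05) and at 0.0241 h for the other (0.11 ± 0.05), and neither passed. Kcnq5, a gene of the muscarine-sensitive M current, ranged from 6.37 to 6.97 and had an amplitude of 0.11 ± 0.04 at 3.51 h (adjusted p = 0.191).

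Kcna genes encode axonal channels that set the spike threshold, and none of the 6 tested passed the threshold of limma. Kcna2 ranged from 6.86 at CT 40 to 8.03 at CT 48 with a median of 7.72, and its fitted amplitude of 0.21 ± 0.06 at 2.48 h lay between those of the called genes Kcnip3 and Kcnn3 (adjusted p = 0.0611). Background-adjusted it was 0.11 (adjusted p = 0.452), and without the 3 narrow arrays 0.14 (0.183). A second probe set of Kcna2 had an amplitude of 0.03 ± 0.04. Kcna5 had an amplitude of 0.16 ± 0.05 at 13.0 h (adjusted p = 0.0594). Kcna1 had an amplitude of 0.08 ± 0.06 (adjusted p = 0.530), but 0.20 with a peak near 14 h once array background was adjusted for (adjusted p = 0.0448) and 0.14 without the array at CT 40 (adjusted p = 0.0856). It was 0.05 with the oligodendrocyte marker mean as a covariate (0.422) and 0.07 without the arrays from CT 18 to CT 26 (0.714). Kcna1 also passed with array weights (0.0458) and with the astrocyte marker mean as a covariate (0.0455), and under no other alternative. Kcna4 (0.04 ± 0.05, adjusted p = 0.807) and Kcnq3, which forms M channels too (0.03 ± 0.03, adjusted p = 0.812), were not called.

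Of the inward rectifiers, Kcnj6 was called, a gene for a G-protein-gated channel by which transmitters such as GABA, through its metabotropic receptors, quiet neurons. Its values ranged from 6.13 at CT 36 to 6.61 at CT 24 with a median of 6.38, a small spread in which the arrays from CT 18 to CT 28 lay above the median and those from CT 52 to CT 62 below it. The amplitude was 0.13 ± 0.03 at 22 ± 0.990 h (limma, adjusted p = 0.0408), and peaks were at 20.5 h in the second cycle and 23.4 h in the first cycle. The call held in the background-adjusted fit (adjusted p = 0.0479) and without the 3 narrow arrays (0.0361), but not on ranks or with linear time as a covariate, and in only 11 of the 24 fits without 1 array. Its partners in the same channel were not called: Kcnj3 had an amplitude of 0.07 ± 0.03 (adjusted p = 0.354) and Kcnj9 one of 0.06 ± 0.03 (0.396). Kcnj10, the main potassium-buffering channel of astrocytes, had values from 9.12 to 10.12 and an amplitude of 0.11 ± 0.05 (adjusted p = 0.248), 0.07 without the array at CT 40. In the background-adjusted fit the amplitude was 0.01 (adjusted p = 0.975), with a fitted peak at 12.7 h in place of 1.61 h. Kcnj8 and Kcnj11, the pore genes of ATP-sensitive channels, had amplitudes of 0.06 ± 0.04 and 0.05 ± 0.03 (adjusted p = 0.556 and 0.550).

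No two-pore member was called, where 7.65% of all tested genes were, a share to which 0 of 12 is close. The 12 tested had amplitudes from 0.04 to 0.10 and adjusted p-values from 0.112 to 0.721. The lowest were those of Kcnk7 (0.10 ± 0.03 at 11.8 h, limma, adjusted p = 0.112, and 0.05 background-adjusted) and Kcnk1, a gene for a weakly inward rectifying leak channel (0.06 ± 0.03 at 13.7 h, adjusted p = 0.270). The leak channel genes Kcnk2, Kcnk3 and Kcnk9 had amplitudes of 0.08 ± 0.04, 0.04 ± 0.04 and 0.08 ± 0.05 (adjusted p = 0.390, 0.721 and 0.385). On ranks limma also called 0 two-pore members.

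In the calcium- or sodium-activated class, Kcnn3 and Kcnmb3 were called, with peaks at 0.623 h and 14.9 h. Kcnn3, a small-conductance calcium-activated channel gene whose current follows a spike and slows firing, ranged from 7.53 at CT 40 to 8.60 at CT 46 with a median of 8.31. Its values around subjective dusk and early night were low in both cycles. At circadian time 16 h the cycles differed, with 7.53 at CT 40 and 8.35 at CT 64, both of them narrow arrays. The amplitude was 0.19 ± 0.05 (SE of the peak 1.01 h; limma, adjusted p = 0.0449), and the call was lost on ranks, with quantile normalisation, with linear time or the astrocyte marker mean as a covariate, in the background-adjusted fit (amplitude 0.12, adjusted p = 0.352) and in 14 of the 24 fits without 1 array. Kcnmb3, an auxiliary subunit gene of the large-conductance channel, ranged from 6.77 at CT 48 to 7.41 at CT 40 with a median of 6.96. Its highest arrays, CT 40 and CT 64, were both taken in the middle of subjective night and are both narrow arrays. The amplitude was 0.15 ± 0.04 (SE of the peak 0.970 h; adjusted p = 0.0371). It was not called on ranks, with the astrocyte marker mean as a covariate, without the 3 narrow arrays (0.211) or in the background-adjusted fit (0.224). The call of Kcnmb3 was also lost in 11 of the 24 fits without 1 array, among them that without CT 40 (0.0641).

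Kcnma1 encodes the pore of the large-conductance calcium-activated channel, whose current damps night firing in the SCN. Its values ranged from 8.20 at CT 40 to 8.98 at CT 44 with a median of 8.63. The amplitude was 0.13 ± 0.04 at 23.6 ± 1.09 h and was not called on all 24 arrays (limma, adjusted p = 0.0617); without the 3 narrow arrays it was 0.11 at 21.6 h and passed (0.0413), and background-adjusted it was 0.08 (0.305). Among its other subunit genes, Kcnmb1 ranged from 6.45 at CT 40 to 7.25 at CT 26 and had an amplitude of 0.14 ± 0.04 at 4.02 h (adjusted p = 0.0684). Kcnmb2 and Kcnmb4 had amplitudes of 0.02 ± 0.04 and 0.04 ± 0.04 (adjusted p = 0.910 and 0.687). The RNA genes Kcnmb4os1 and Kcnmb4os2 overlap Kcnmb4 in RefSeq, and their part in its signal was not tested. Kcnn2 had an amplitude of 0.09 ± 0.03 at 15.8 h (adjusted p = 0.0744) and passed in the background-adjusted fit (0.0433) and without the 3 narrow arrays (0.0259). Kcnn1 had an amplitude of 0.03 ± 0.03 (adjusted p = 0.732). The sodium-activated genes Kcnt2 and Kcnt1 had amplitudes of 0.13 ± 0.03 at 1.92 h and 0.10 ± 0.04 at 5.44 h (adjusted p = 0.0535 and 0.236).

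Over all 9 called members the peaks fitted to the second and the first cycle were 0.182 to 3.33 h apart, within 4 h in each case. These members were called by a single curve fitted to both cycles together, which favours genes with like peaks. The closeness of the peaks is therefore no separate test of their rhythm. In 4 of the 9 the lowest of 24 arrays was CT 40, an array that was the lowest for 19.7% of the 71 members and 29.6% of all genes, and the highest for 23.9% of members and 15.6% of all genes. Kcnc2, Kcnh5 and Kcnj6 were the members called in each of 3 fits, that on all 24 arrays, the background-adjusted one and the one that left out the 3 narrow arrays. The last of these fits has no array at the circadian time of CT 40. Without the arrays from CT 18 to CT 26, Kcnc2, Kcnip3 and Kcnn3 were called (adjusted p = 0.0209, 0.0209 and 0.0410), Kcna5 passed as well (0.0466), and Kcnh5 and Kcnj6 did not pass (0.164 and 0.240). The other 62 tested members had amplitudes from 0.01 to 0.21, and 9 of them, or 14.5%, had an unadjusted p under 0.05, against 21.5% of all genes not called. In simulated data of 13956 genes, 41.8% of 67 genes with an amplitude of 0.15 and 97.0% of 67 genes with 0.3 were recovered. Far fewer genes were rhythmic there than the 1067 called in the data, and the simulated noise was independent between genes. These shares therefore do not give the detection rate in these data. A member that was not called is not shown to lack a rhythm.

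**Figure D3:**
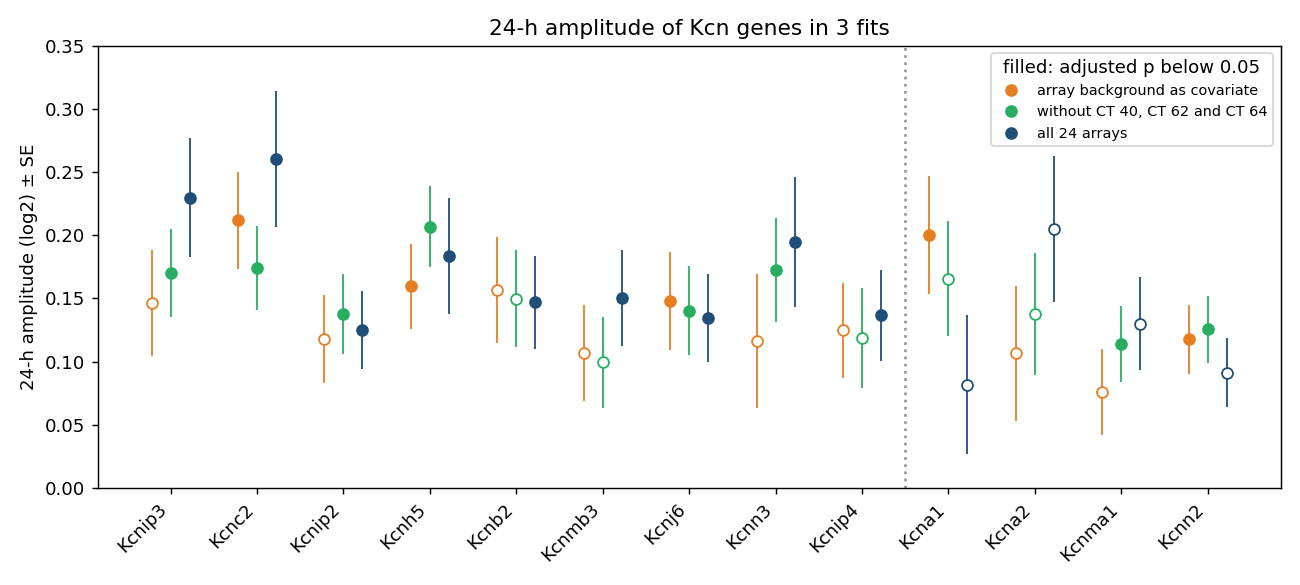
Amplitude (log2) with its SE of the 9 called Kcn genes and, right of the dotted line, of 4 others, in the background-adjusted fit, in the fit that left out CT 40, CT 62 and CT 64, and on all 24 arrays; filled points have an adjusted p below 0.05. Kcnc2, Kcnh5 and Kcnj6 are filled in all 3 fits, while Kcna1 and Kcnn2 are filled with the covariate.

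Promoter sequences were compared because the clock proteins act through short motifs. RefSeq windows from 250 bases before to 50 bases after a transcript start were at hand for 70 members (95 windows), including 8 of the 9 called members (15 windows; not Kcnb2). The E-box CACGTG, to which CLOCK and BMAL1 bind, was in 0 of the 15 windows of called members, in 4 of 65 windows of tested members not called, in 7.37% of all member windows and in 7.15% of the 32851 windows of all genes. The variant CACGTT was in 1 window of a called member, in 3.16% of member windows and in 4.68% of all windows. The D-box TTATGTAA and the cyclic-AMP element TGACGTCA were in 0 of the 95 member windows and in 0.938% and 1.79% of all windows. AGGTCA, the core of the element read by ROR and REV-ERB proteins, was in 1 window of a called member, 6.32% of member windows and 16.3% of all windows. Both strands were searched, and no motif of this set contains another. A match is a description of the letters in the window and not a binding site.

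The stretches below show the AGGTCA core before a start of the called gene Kcnip4 and E-boxes of other members. Of the tested members these are Kcnab1 (a cytoplasmic subunit of Kcna channels), Kcnh4 and Kcnn4. Those shown from under the filter are Kcne4, a small single-pass subunit gene, and Kcnj2, a strong inward rectifier. Stretches were drawn only from the 250 bases before a start and not from every chromosome, so they do not include every match counted above. Capitals mark the motif, read here on the strand of the gene, where the core of Kcnip4 appears as its reverse complement, and positions of the Kcnab1 motifs are counted from the start. They lie at chr5:49285747-49285800 (minus strand, Kcnip4), chr3:65108828-65108881 and chr3:65188034-65188087 (plus, Kcnab1), chr11:100759836-100759889 (minus, Kcnh4), chr7:24370106-24370159 (plus, Kcnn4), chr1:78816833-78816886 (plus, Kcne4) and chr11:111066056-111066109 (plus, Kcnj2) of GRCm38.p6.
Kcnip4: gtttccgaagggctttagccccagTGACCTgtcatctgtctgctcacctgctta
Kcnab1 (-162): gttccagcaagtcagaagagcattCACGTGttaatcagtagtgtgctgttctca
Kcnab1 (-45): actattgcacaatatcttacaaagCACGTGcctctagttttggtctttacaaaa
Kcnh4: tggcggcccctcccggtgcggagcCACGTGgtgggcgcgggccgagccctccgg
Kcnn4: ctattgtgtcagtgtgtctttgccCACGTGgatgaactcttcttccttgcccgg
Kcne4: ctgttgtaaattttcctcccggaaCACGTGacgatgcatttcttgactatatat
Kcnj2: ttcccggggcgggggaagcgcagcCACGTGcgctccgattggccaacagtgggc

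Of these, Kcnab1, Kcnh4 and Kcnn4 had amplitudes of 0.04, 0.09 and 0.09 and were not called (limma, adjusted p = 0.741, 0.262 and 0.211). Kcne4 and Kcnj2 were tested only in the fit with no filter on low values. There Kcne4 had an amplitude of 0.09 ± 0.05 at 15.3 h (limma, adjusted p = 0.417). Kcnj2 had one of 0.21 ± 0.05 at 16.5 h (adjusted p = 0.0209). The values of Kcnj2 were low, from 4.27 to 4.99. The mean of the array background genes lay between 4.04 and 4.35 in the second cycle and between 4.01 and 4.51 in the first cycle. For Kcnj2 no background-adjusted fit was made, nor one without the narrow arrays. The part of the array background in its fitted rhythm was therefore not tested.

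The second cycle was then compared with the first at the same circadian times. A difference was called by limma in 0 of 71 members and in 0% of all genes. At an unadjusted p under 0.05 the count of members was 6 (8.45%, against 8.71% of all genes), and on ranks 0 were called and 6 had such a p. The differences between cycles, given as second minus first, ran from -0.26 to 0.21 with a median of -0.01 over members and 0.00 over all genes. They were above 0 in 32 of 71 members and in 7283 of 13956 genes. Electrically silent voltage-gated subunits form no channel alone and modify others, and they were grouped after the values were seen. Of these 7, 0 were higher in the second cycle, with differences from -0.17 (Kcnv1, limma, adjusted p = 0.464) to -0.01. Of the 12 two-pore members 7 were higher in the second cycle, of the 11 calcium- or sodium-activated members 6, of the 32 voltage-gated members 12 and of the 10 inward rectifiers 4. Whether these groups differ was not tested.

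Kcna4, an A-type channel gene of axons, had a lowest, median and highest value of 6.95, 7.07 and 7.22 in the second cycle, against 7.13, 7.33 and 7.61 in the first cycle. The groups overlapped only between 7.13 and 7.22, and the second cycle was higher at 1 of 12 circadian times. Kcna4 and Kcnt1, described next, had the smallest p of all members in this test, so such a separation restates that rank. How many of all genes were separated as far was not counted. The difference was -0.26 ± 0.05 (limma, adjusted p = 0.146). Background-adjusted it was -0.26 (adjusted p = 0.0153), with array weights -0.24 (0.0214), and without the array at CT 54 it also passed (0.0448), while without the arrays from CT 18 to CT 26 it was -0.24 (0.362).

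Kcnt1, a sodium-activated channel gene, had 7.64, 7.85 and 7.98 in the second cycle, against 7.32, 7.66 and 7.74 in the first cycle. It was higher in the second cycle at 12 of 12 circadian times, a pattern not counted over all genes. The difference was 0.21 ± 0.04 (limma, adjusted p = 0.160), and background-adjusted 0.21 (0.0137). Without the arrays from CT 18 to CT 26 it was 0.19 (0.362). Kcna2 averaged 7.79 ± 0.19 in the second cycle and 7.57 ± 0.28 in the first cycle (SD, n = 12 arrays each), and its difference of 0.21 ± 0.07 was not called (limma, adjusted p = 0.428).

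**Figure D4:**
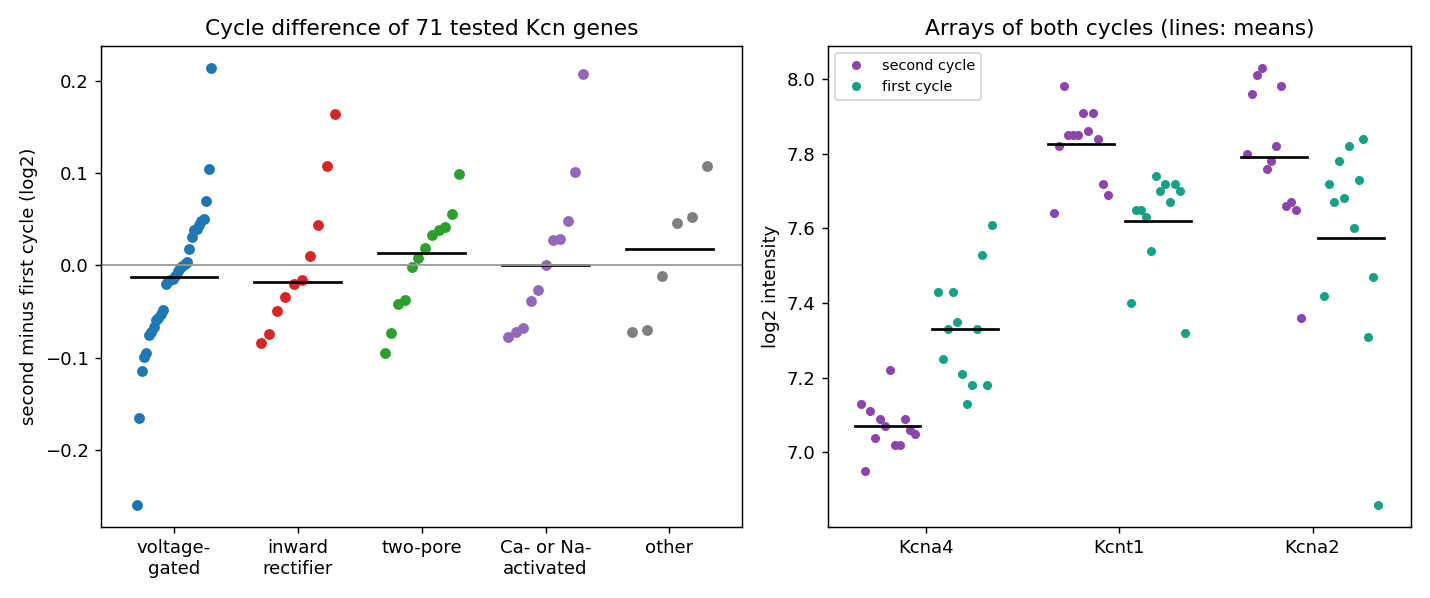
Left, difference of each of the 71 tested Kcn genes (log2, second minus first cycle) by class, with lines for class medians; right, log2 intensity of 3 members on the 12 arrays of the second cycle and the 12 arrays of the first cycle, with lines for the means. Kcna4 is lower and Kcnt1 and Kcna2 are higher in the second cycle by 0.21 to 0.26.

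A change in rhythm between the cycles was called in 0 of 71 members and in 0% of all genes by limma. At an unadjusted p under 0.05 the count was 1, or 1.41%, where 2.42% of all genes had such a p (0 members on ranks). This was Kcnmb1, an auxiliary subunit gene of the large-conductance channel, with an amplitude of 0.06 in the second cycle and 0.24 in the first cycle. A 12-h rhythm beside the 24-h one was called by limma in 0 of 71 members and in 0.0358% of all genes, with 10 members (14.1%) and 21.9% of all genes at an unadjusted p under 0.05; on ranks 0 were called and 10 had such a p. The lowest adjusted p was that of Kcnj10, with a 12-h amplitude of 0.15 ± 0.04 (0.130).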

How the data were processed

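Total RNA of the SCN was measured on Affymetrix arrays, and the deposited table holds log2 intensities of probe sets, normalised by the authors with RMA (version 1.3.1.187 in Affymetrix Expression Console, per the submitters' processing notes); the genome build behind the array design is not given in the sources used here. Values were used as deposited. Of 35556 probe sets, 21789 had 1 symbol in the platform annotation. All 92 members matched RefSeq (GRCm38.p6), and 3 (Kcna2, Kcnh8 and Kcnma1) had more than 1 probe set. The members, classes, gene lists and tests were chosen with earlier results of these data known.

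Curves were fitted in R 4.3.3 by limma 3.58.1, with cosine and sine terms, eBayes moderation and a threshold of 0.05 on the p-value adjusted over all 13956 genes with a mean at or above the 30th percentile. With 1 array per time, 21 residual degrees of freedom gave the error of the 24-h fit. The p-values therefore rest on the scatter of these pooled samples around the curve and not on a spread between replicates. The second cycle was compared with the first by a cycle term, the change in rhythm by its interaction, and a 12-h rhythm beside the 24-h terms. All tests were two-sided or F tests. Members named with values were those called, the 2 uncalled members of smallest p in each class, and a list known from SCN firing or glia; others were named after their values were seen. Roles were assigned by hand. The fits were tested on simulated data: at amplitudes of 0.15, 0.3 and 0.6, 41.8%, 97.0% and 100% of 24-h rhythms were recovered, and at such differences 22.4%, 83.6% and 100% of cycle differences. Alternatives covered the filter, probe sets, normalisation, array weights, priors, covariates, arrays left out, ranks, the threshold and time terms. Motif counts and figures were made in Python 3.11.15 with pandas 2.3.3, NumPy 2.4.6 and matplotlib 3.10.9.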

Additional observations from a re-analysis of the deposited data

How the results depend on the processing

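The count of 9 members with a 24-h rhythm was 5 with no filter on low values, 3 with all single-symbol probe sets tested, 5 with the array background as a covariate, 19 with the oligodendrocyte marker mean as a covariate, 5 with linear time as a covariate, 0 where the adjusted p had to be under 0.01 (18 at an unadjusted p under 0.05 in limma), and 4 without the arrays from CT 18 to CT 26, an alternative chosen after seeing the data. It was 6 to 12 under the other 8 alternatives that kept every array or left out CT 40, CT 62 and CT 64, and 3 to 11 when 1 array was left out. Shared with the 9 were 3 genes with the array background covariate, 3 on ranks, 4 with linear time and all 9 with the oligodendrocyte covariate. Over 14 alternatives besides single arrays and the threshold, Kcnc2 was called in 14, Kcnip3 in 13, Kcnh5 in 12, Kcnb2, Kcnmb3 and Kcnn3 in 7 and Kcnip4 in 5; over the 13 that tested them, Kcnip2 was called in 9 and Kcnj6 in 8. With more than 1 probe set tested per gene, and with no filter, more features share the adjustment, but the unadjusted p-values of the 9 called members also rose. The cause of the changed counts was not tested for any setting. Over all genes, 1067 calls became 686 with all probe sets, 534 with the array background covariate, 3267 with the oligodendrocyte covariate, 679 without CT 40, CT 62 and CT 64, 665 without CT 18 to CT 26 and 170 at 0.01. The count of cycle differences was 1 with array weights (Kcna4, beside 5 calls over all genes) and 2 with the array background covariate (Kcna4 and Kcnt1, beside 66), 0 to 1 when 1 array was left out, and 0 with circadian time as a factor, which pairs arrays 24 h apart. The counts of changed rhythms and of 12-h rhythms were 0 under every alternative run for them, which did not include linear time or circadian time as a factor, and from 0 to 0 with 1 array left out. Calls near the threshold are limited by 24 arrays of pooled RNA.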
